A study of Mus musculus with 7 samples.

Results

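E2F factors and pocket proteins decide whether the genes of DNA replication are transcribed. The 10 genes described here are E2f1 to E2f8, which encode the E2F transcription factors, and Rb1 and Rbl1, which encode the retinoblastoma protein and its relative p107. They were selected by gene symbol, and all 10 were found among the 24419 genes of the count table. The data are poly(A) RNA from cultured LLC1 cells, a line derived from mouse Lewis lung carcinoma and grown in serum-containing medium. The 3 Ddx54 KD libraries come from cells in which Ddx54, a nucleolar DEAD-box RNA helicase, was knocked down with an shRNA, and the 4 WT libraries carry the label of unaltered Ddx54. The labels give neither a control construct for the WT cells, nor the shRNA sequence, nor whether the knockdown cells are 1 clone, and they do not say that replicates were separate cultures. A p-value here therefore measures library-to-library spread, which may be technical. The series title concerns lowered DDX54 and PD-1 blockade in lung tumours, and its single-cell part was not analysed here.

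In a resting cell, pocket proteins sit on E2F factors and hold their target genes silent. Cyclin-dependent kinases phosphorylate the pocket proteins in G1, the E2F factors are released, and genes for nucleotide synthesis and replication are switched on. E2F1, E2F2 and E2F3 are the activators, E2F4 and E2F5 repress together with pocket proteins, E2F6 represses through polycomb-type complexes without a pocket protein, and the atypical factors E2F7 and E2F8 repress without pocket proteins or a dimerization partner. Several of these genes, E2f1, E2f2, E2f7, E2f8 and Rbl1 among them, are themselves known E2F targets and are transcribed from late G1 into S phase.

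RefSeq promoter windows, from 250 bases before to 50 bases after a transcription start (build GRCm38.p6, the assembly also called mm10), were at hand for 7 of the 10 members. The windows shown were chosen by both change and word. They are those of E2f7, E2f2, E2f3 and Rbl1, which rose and hold an E2F word. The window of E2f8, the closest relative of E2f7, which did not pass the test, is also shown. E2f1 rose too, but its window held neither kind of word and is not printed. A link between the words and the rises was not tested. Where a gene had several windows, the one farthest upstream is shown. Capitals mark matches to an E2F word (TTTGGCGC, TTTCCCGC, TTTGCCGC or TTTCGCGC) or to the word TTTGAA, known as the CHR element of genes bound by the DREAM complex, on either strand. Each sequence is printed 5′ to 3′ on the strand of its gene.
E2f7, chr10:110745189-110745488, plus strand: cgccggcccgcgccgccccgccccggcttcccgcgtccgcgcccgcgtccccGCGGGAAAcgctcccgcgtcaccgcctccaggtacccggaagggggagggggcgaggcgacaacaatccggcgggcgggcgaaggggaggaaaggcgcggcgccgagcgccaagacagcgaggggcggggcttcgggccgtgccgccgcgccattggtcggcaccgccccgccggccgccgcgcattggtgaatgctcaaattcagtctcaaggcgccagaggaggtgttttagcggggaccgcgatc
E2f2, chr4:136172024-136172323, plus strand: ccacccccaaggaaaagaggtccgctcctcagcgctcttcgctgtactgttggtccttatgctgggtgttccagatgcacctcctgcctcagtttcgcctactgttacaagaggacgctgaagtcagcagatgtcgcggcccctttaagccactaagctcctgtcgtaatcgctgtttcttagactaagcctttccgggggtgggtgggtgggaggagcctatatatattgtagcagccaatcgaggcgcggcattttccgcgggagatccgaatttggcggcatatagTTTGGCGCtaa
E2f3, chr13:29986014-29986313, minus strand: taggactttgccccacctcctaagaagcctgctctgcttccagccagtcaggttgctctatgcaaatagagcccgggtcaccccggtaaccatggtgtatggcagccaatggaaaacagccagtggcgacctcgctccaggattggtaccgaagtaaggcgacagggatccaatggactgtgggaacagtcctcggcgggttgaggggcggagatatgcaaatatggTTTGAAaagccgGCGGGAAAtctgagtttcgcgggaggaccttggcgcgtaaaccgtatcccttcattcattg
Rbl1, chr2:157204485-157204784, minus strand: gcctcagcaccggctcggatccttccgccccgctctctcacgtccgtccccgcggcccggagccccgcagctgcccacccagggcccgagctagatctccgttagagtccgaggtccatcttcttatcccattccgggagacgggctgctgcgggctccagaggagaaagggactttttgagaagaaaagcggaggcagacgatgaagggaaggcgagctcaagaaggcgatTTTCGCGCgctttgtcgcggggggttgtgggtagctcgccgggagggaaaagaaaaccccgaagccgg
E2f8, chr7:48881547-48881846, minus strand: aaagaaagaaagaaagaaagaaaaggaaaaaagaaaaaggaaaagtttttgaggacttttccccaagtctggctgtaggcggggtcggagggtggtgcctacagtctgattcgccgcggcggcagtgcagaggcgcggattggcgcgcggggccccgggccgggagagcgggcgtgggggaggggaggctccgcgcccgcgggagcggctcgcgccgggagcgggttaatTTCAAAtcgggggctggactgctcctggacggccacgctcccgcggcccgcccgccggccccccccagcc

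The printed E2f7 window held an E2F word on the opposite strand, beginning 198 bases before the start. The E2f2 window held one on the printed strand from base 40 after the start, and the Rbl1 window held one 18 bases before it. In E2f3 the E2F word, on the opposite strand, began 11 bases before the start and a CHR word 23 bases before it. The E2f8 window held a CHR word on the opposite strand, 20 bases before the start. Among all 32851 windows of this length, 2.26% held an E2F word and 17.9% a CHR word, and 0 of the matches in the members' windows overlapped another. A second window of E2f2 held a CHR word, while the windows of E2f1 and E2f6 and a second window of E2f3 held neither. The RefSeq start of the E2f1 window lies 466 bases inside the GENCODE gene model. That of the printed E2f2 window lies 120 bases before its gene model. A match is a run of letters and does not show binding.

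In the GENCODE M21 annotation of GRCm38, E2f7 lies on chromosome 10 at 110745439 to 110787384 (plus strand) and E2f8 on chromosome 7 at 48866429 to 48881596 (minus strand). E2f1, at 154559407 to 154569892, and Rbl1, at 157145893 to 157204534, share chromosome 2 and its minus strand. E2f2 lies on chromosome 4 at 136172394 to 136196057 (plus strand), E2f3 on chromosome 13 at 29906575 to 29986063 (minus strand) and Rb1 on chromosome 14 at 73183673 to 73325822 (minus strand). E2f4 (chromosome 8), E2f5 (chromosome 3) and E2f6 (chromosome 12) are on the plus strand. All are protein-coding. Without a stated strand setting, reads of genes on the other strand cannot be told apart where exons overlap: 610 bases of E2f8 exons overlap the noncoding Gm2788, 26 bases of E2f5 exons overlap 1810022K09Rik, and 86 bases of E2f7 exons overlap 1700020G17Rik, which had 0 reads in every library.

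All 10 members were abundant enough to be tested, with 158 to 2192 reads per gene and library. Total counts ranged from 14987324 to 18673395 per library. Ddx54 itself was at 45.9, 39.2 and 45.8 CPM (read counts scaled to library size with TMM factors) in the Ddx54 KD libraries, against 80.4, 82.5, 78.6 and 83.2 CPM in the WT libraries, so no library went against its label. Rn45s, the pre-ribosomal RNA, took 7.96 to 9.07% of counts in Ddx54 KD libraries and 10.7 to 12.5% in WT libraries. Of the 5 epithelial markers 3 were tested and 2 fell, Krt18 and Krt19. That is 66.7% of those tested, against 15.3% of all tested genes called lower. Krt19 was low in both groups (1.08 ± 0.544 CPM in Ddx54 KD and 4.39 ± 0.490 CPM in WT, log2 fold change -2.03). Krt8 and Krt18 were present, while Epcam and Cdh1 averaged under 0.05 CPM in both groups, and Krt18 was lower in Ddx54 KD (131.7 ± 4.02 CPM, against 217.5 ± 4.77 CPM in WT; log2 fold change -0.72, adjusted p = 4.62e-10). The 7 leukocyte markers summed to 2.99 to 4.72 CPM in Ddx54 KD libraries and to 2.18 to 5.16 CPM in WT libraries, nearly all of it Cd68, with Cd3e at 0 in every library. The 6 fibroblast markers summed to 28.9 to 32.5 CPM in Ddx54 KD libraries and 23.6 to 30.2 CPM in WT libraries, most of it Pdgfra. Of them 0 of 4 tested passed, against 29.4% of all tested genes in either direction. The 5 endothelial markers summed to 0.054 to 0.776 CPM in Ddx54 KD libraries and 0.178 to 0.784 CPM in WT libraries.

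Of the 10 members, 5 were higher in Ddx54 KD, 0 were lower and 5 did not pass an adjusted p of 0.05 (edgeR quasi-likelihood test, Benjamini-Hochberg over 11594 tested genes). The 5 were the 3 activators E2f1, E2f2 and E2f3, the atypical repressor E2f7 and the pocket protein gene Rbl1. Over all tested genes 29.4% passed in either direction, 14.1% as higher and 15.3% as lower. The ranges of the groups did not overlap for 4 members, all higher in Ddx54 KD, against 35.1% of tested genes in either direction, 17.5% higher and 17.6% lower. The median log2 fold change was 0.25 over the members and 0.001 over all tested genes. In bulk RNA a change in the share of cells in a cycle phase and a change in RNA per cell cannot be told apart. With knockdown replicate 3 left out, only E2f1 and E2f7 passed, so the count of 5 rests on that library, while E2f1 and E2f7 passed under each of the 17 alternatives tried.

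**Figure D1:**
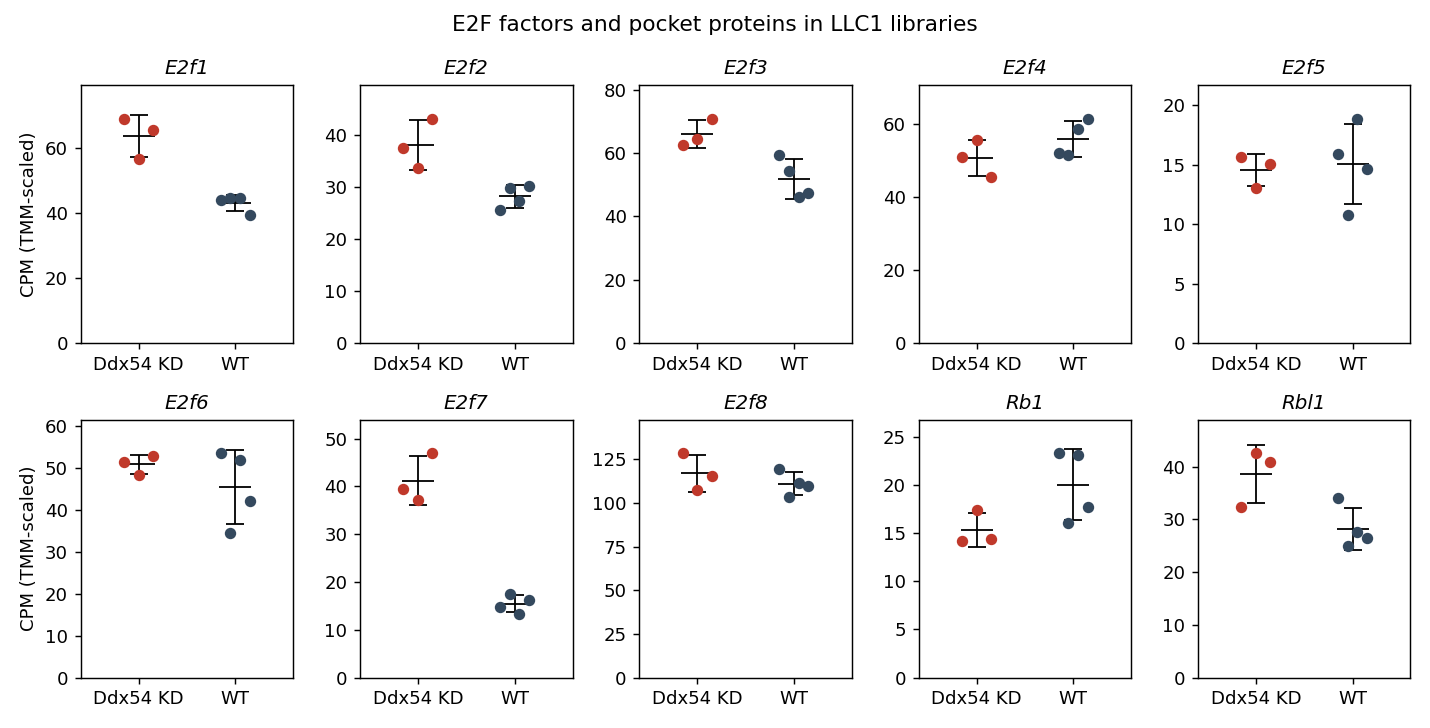
CPM (TMM-scaled, vertical axes from 0, a separate scale for each gene) of the 10 members in each library, with Ddx54 KD (red, n = 3) left of WT (dark, n = 4); points are libraries and the bars show the mean ± SD. The groups stand apart for E2f1, E2f2, E2f3 and E2f7, where every Ddx54 KD library lies above every WT library, and overlap for the other 6.

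E2F1 is the activator best known for driving entry into S phase. E2f1 was at 69.2, 56.6 and 65.6 CPM in the Ddx54 KD libraries, against 44.2, 44.7, 44.6 and 39.5 CPM in the WT libraries. Every knockdown library lay above every WT library. The means were 63.8 ± 6.50 CPM in Ddx54 KD and 43.3 ± 2.52 CPM in WT (SD, n = 3 and 4), and the log2 fold change was 0.56 (SE 0.11, adjusted p = 9.69e-05). E2F2 is an activator whose functions overlap with those of E2F1. E2f2 was at 37.4, 33.6 and 43.1 CPM in Ddx54 KD, against 25.5, 29.8, 27.2 and 30.1 CPM in WT. The groups did not overlap, though the lowest knockdown library and the highest WT library were close, and the log2 fold change was 0.43 (SE 0.13, adjusted p = 0.00945).

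E2F3 is made as a longer and a shorter form from separate promoters, which counts per gene symbol do not separate. E2f3 was at 62.5, 64.5 and 70.9 CPM in Ddx54 KD, against 59.4, 54.2, 46.1 and 47.5 CPM in WT. The WT libraries spread more than the knockdown libraries, and the groups did not overlap. The log2 fold change was 0.35 (SE 0.10, adjusted p = 0.0105). Both E2f2 and E2f3 lost the call without knockdown replicate 3 (0.33, adjusted p = 0.11 for E2f2, and 0.29, adjusted p = 0.0825 for E2f3). The approximate 95% intervals of the 3 activators overlapped, and the differences between their fold changes were not tested.

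E2f7 had the highest fold change of the members. E2F7 represses the genes that the activators switch on, E2f1 included, and is needed together with E2F8 in mouse development. E2f7 was at 39.4, 37.2 and 46.9 CPM in the Ddx54 KD libraries, against 14.8, 17.4, 13.3 and 16.3 CPM in the WT libraries. The lowest knockdown library was above the highest WT library by more than the whole spread of either group. The log2 fold change was 1.41 (SE 0.14, adjusted p = 1.55e-09), that is 2.66-fold, with an approximate 95% interval of 1.14 to 1.69. E2f7 was the 1 member that passed with at least a 2-fold rise, against 1.05% of all tested genes, and it ranked 58 among the 1635 genes called higher.

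E2f8 did not pass the test. It was at 128, 107 and 115 CPM in Ddx54 KD, against 119.5, 103, 111 and 110 CPM in WT. The groups overlapped, though knockdown replicate 1 lay above every WT library. The log2 fold change was 0.07 (SE 0.08, adjusted p = 0.546), with an approximate 95% interval of -0.08 to 0.23. That interval and the one of E2f7 do not meet, and the difference between the 2 genes was not tested. The E2f8 window printed above held none of the 4 E2F words searched and the E2f7 window held one, which describes the sequences only. The E2f8 window does read attggcgc, which differs from TTTGGCGC in its first letter. Looser forms of the E2F word were not searched, so the window cannot be said to lack an E2F site.

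The pocket-dependent repressors did not pass. E2F4 is the main E2F factor on silent promoters in resting cells. E2f4 was at 50.9, 55.7 and 45.6 CPM in Ddx54 KD, against 52.1, 51.6, 58.6 and 61.6 CPM in WT. The groups overlapped, and the log2 fold change was -0.14 (SE 0.11, adjusted p = 0.356). E2f5, whose product also represses with pocket proteins, was the member with the fewest reads in a library. It was at 15.6, 13.1 and 15.03 CPM in Ddx54 KD, against 15.9, 10.7, 18.9 and 14.7 CPM in WT, and the knockdown values lay inside the WT range. Its log2 fold change of -0.05 (SE 0.19, adjusted p = 0.887) turned to 0.08 without WT replicate 3 and to 0.02 without knockdown replicate 2.

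E2F6 has no domain for pocket proteins or for activation. E2f6 was at 51.4, 48.3 and 52.8 CPM in Ddx54 KD, against 53.4, 34.5, 51.8 and 42.0 CPM in WT. The knockdown libraries were close together and lay within the WT range (log2 fold change 0.16, SE 0.12, adjusted p = 0.366). The coefficient of variation of E2f6 was 4.50% in Ddx54 KD and 19.5% in WT. That of E2f5 was 9.15% in Ddx54 KD and 22.5% in WT. WT replicate 2 was the lowest WT library for 6 of the 10 members, E2f5 and E2f6 among them.

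Of the pocket protein genes, Rbl1 rose and Rb1 did not pass. Rb1 encodes the retinoblastoma protein, which binds the activator E2Fs. Rb1 was at 14.2, 17.4 and 14.4 CPM in Ddx54 KD, against 23.3, 16.0, 23.1 and 17.7 CPM in WT, with 221 to 427 reads per library. Knockdown replicate 2 lay above the lowest WT library, and the log2 fold change of -0.39 did not pass (SE 0.17, adjusted p = 0.0936). It passed without WT replicate 2 (-0.48, adjusted p = 0.0349) and after correction for GC content and transcript length (-0.46, adjusted p = 0.0402). Exons of Rcbtb2 and Lpar6 on the other strand share 488 and 408 bases with exons of Rb1. The strand setting of the counting is not given, so Rb1 could have gained reads of these genes or lost its own there.

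Rbl1 encodes p107, which binds mainly E2F4 and accumulates in cycling cells. Rbl1 was at 32.3, 42.6 and 40.9 CPM in Ddx54 KD, against 34.0, 24.9, 27.7 and 26.5 CPM in WT. Knockdown replicate 1 lay below WT replicate 1, so the groups overlapped, and the log2 fold change was 0.45 (SE 0.13, adjusted p = 0.0109). The call was lost without knockdown replicate 2 (0.37, adjusted p = 0.0935) or knockdown replicate 3 (0.40, adjusted p = 0.0621). Rbl2, which encodes the other pocket protein p130 and is no member, was named after its values were seen. It averaged 21.9 CPM in Ddx54 KD and 20.9 CPM in WT (log2 fold change 0.07, adjusted p = 0.787).

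**Figure D2:**
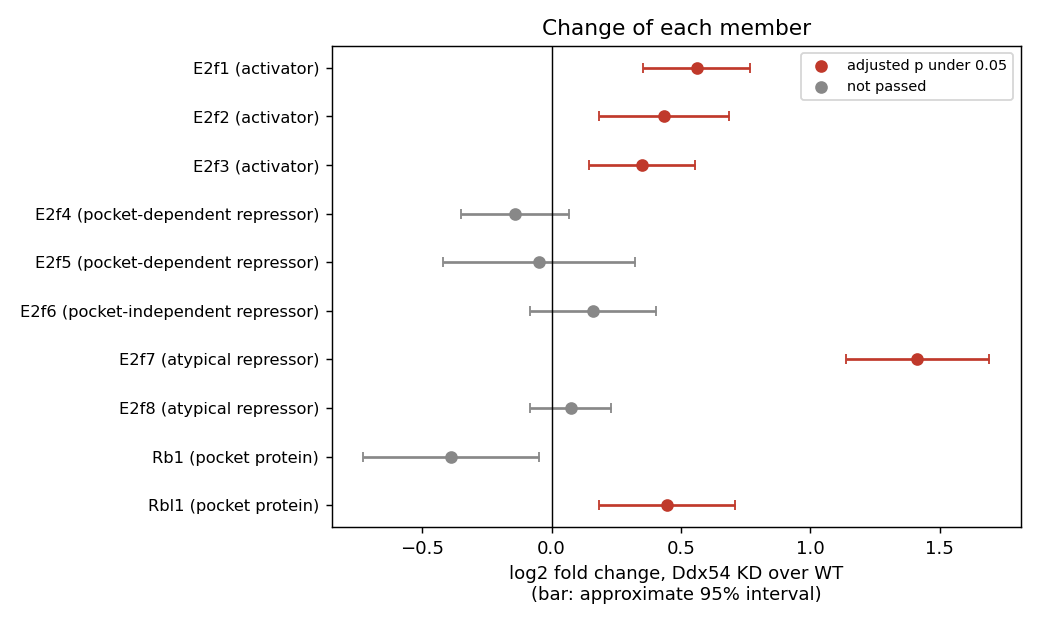
Log2 fold change of each member, Ddx54 KD over WT (horizontal axis), with its approximate 95% interval (bar, from the standard error of the edgeR fit); red points passed an adjusted p of 0.05 and grey points did not. E2f7 at 1.41 lies apart from the other 4 members that rose, which lie between 0.35 and 0.56.

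Levels of different genes were compared per kilobase of exon (CPM divided by the length of all annotated exons of the gene). In Ddx54 KD libraries the highest levels were those of E2f8 (21.5 ± 1.97 CPM per kilobase), E2f4 (20.7 ± 2.06) and E2f1 (20.2 ± 2.06), and neighbours in that order overlapped. In WT libraries E2f4 (22.8 ± 2.01 CPM per kilobase) and E2f8 (20.4 ± 1.23) overlapped at the top, and E2f1 stood below both at 13.7 ± 0.799. E2f7 had a level of 4.57 ± 0.563 CPM per kilobase in Ddx54 KD, above only Rb1, and 1.72 ± 0.195 in WT, the lowest of the members. The most changed member was thus among the least abundant. Rb1 was at 2.55 ± 0.296 CPM per kilobase in Ddx54 KD and 3.33 ± 0.619 in WT. Between the top and the bottom, E2f3, E2f6, E2f5, E2f2 and Rbl1 followed in this order in Ddx54 KD at 12.2 to 6.43 CPM per kilobase, and from E2f6 to Rbl1 each overlapped the next. In WT the order between them was E2f3, E2f5, E2f6, E2f2 and Rbl1, from 9.54 to 4.72 CPM per kilobase, and each overlapped the next. With the longest annotated transcript as the length, E2f6 was at 16.8 CPM per kilobase in Ddx54 KD and 15.1 in WT, above E2f3, and E2f7 at 7.53 in Ddx54 KD and 2.82 in WT.

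**Figure D3:**
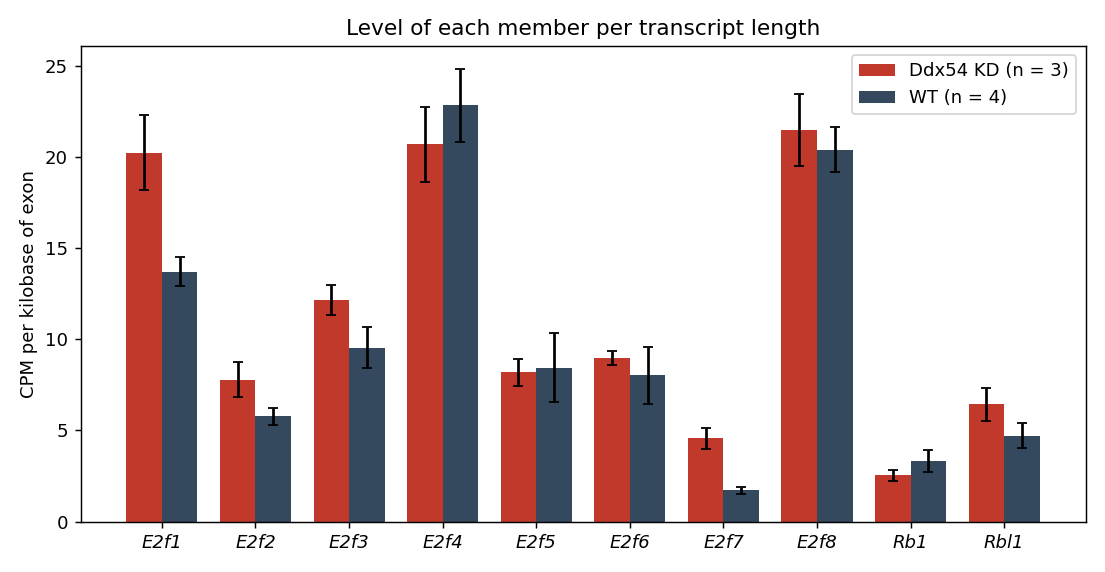
Level of each member in CPM per kilobase of annotated exon (vertical axis from 0), with Ddx54 KD (red, n = 3) left of WT (dark, n = 4); bars are means and whiskers are SDs. E2f8 and E2f4 are high in both groups, E2f1 comes up to them in Ddx54 KD at 20.2, and E2f7 is low in both at 4.57 and 1.72.

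The summed level of the 8 E2F genes was 104 ± 4.44 CPM per kilobase in Ddx54 KD and 90.4 ± 4.38 in WT. Of this sum the activators E2f1, E2f2 and E2f3 made up 38.2, 37.1 and 40.5% in the Ddx54 KD libraries, against 32.3, 35.9, 30.1 and 30.4% in the WT libraries. The pocket-dependent repressors E2f4 and E2f5 made up 27.4, 30.3 and 25.7% in Ddx54 KD, against 32.3, 32.1, 36.8 and 37.0% in WT. In neither case did the groups overlap, and WT replicate 2 came nearest to the knockdown libraries for both. The atypical repressors E2f7 and E2f8 together made up 24.99 ± 0.965% in Ddx54 KD and 24.4 ± 0.800% in WT. Within them E2f7 held 4.39 ± 0.477% of the E2F sum in Ddx54 KD and 1.91 ± 0.308% in WT. These shares follow from the member values above and were not tested.

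The partners of the E2F factors were described from lists of pathway genes, by counts and medians, with no test of a list. These lists were chosen with earlier results of these data known. E2F1 to E2F6 bind DNA with a DP protein. Tfdp1, which encodes the main one, was at 81.4 ± 2.08 CPM in Ddx54 KD and 61.7 ± 6.30 CPM in WT (log2 fold change 0.40, adjusted p = 0.00116), and Tfdp2 did not pass (0.22, adjusted p = 0.136). Of 13 genes for cyclins, kinases and activators that act on pocket proteins, 5 rose and 2 fell (38.5% and 15.4%, against 14.1% and 15.3% of all tested genes), with a median log2 fold change of 0.12. Under the 17 alternatives that median ranged from 0.06, without WT replicate 1, to 0.36, with a replicate block. The block compared replicates 1 to 3 of each group only, without WT replicate 4. The rises were in genes of cyclin E, cyclin A, Cdk2 and its activator. Cdk2 (0.49, adjusted p = 0.00183) and the genes that fell were named after their values were seen. Mnat1 (-0.48, adjusted p = 2.24e-06) and Ccnh (-0.30, adjusted p = 0.0247) fell, and both encode subunits of the kinase that activates CDKs. Ccnh lost the call with a replicate block and without WT replicate 4, knockdown replicate 2 or knockdown replicate 3, with adjusted p-values of up to 0.117. Ccne2 was at 62.9 ± 12.2 CPM in Ddx54 KD and 29.4 ± 5.52 CPM in WT (1.10, adjusted p = 1.22e-07), and Ccne1 at 55.5 ± 0.950 CPM in Ddx54 KD and 30.55 ± 4.54 CPM in WT (0.86, adjusted p = 8.58e-07). Both encode E cyclins, which activate Cdk2 at the start of S phase. Cdc25a, a phosphatase that activates Cdk2 (0.94, adjusted p = 2.26e-09), and Ccna2 (0.56, adjusted p = 2.25e-06) rose as well.

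The genes of the cyclin D kinases, named after their values were seen, did not pass. Ccnd1, Ccnd2, Cdk4 and Cdk6 had log2 fold changes of 0.07, 0.05, 0.02 and 0.12 (adjusted p = 0.363, 0.601, 0.893 and 0.795), and the groups overlapped for each. Ccnd3 was at 6.68, 7.76 and 7.16 CPM in Ddx54 KD, against 6.38, 4.96, 3.92 and 4.09 CPM in WT. Every knockdown library lay above every WT library for Ccnd3, and its log2 fold change of 0.57 did not pass (SE 0.28, adjusted p = 0.124). Of the 7 genes for CDK inhibitors, 4 were tested, of which 1 rose and 1 fell. That is 25% in each direction, against 14.1% higher and 15.3% lower among all tested genes. Cdkn2c, an inhibitor of Cdk4 and Cdk6, rose (22.8 ± 2.80 CPM in Ddx54 KD and 16.1 ± 2.94 CPM in WT; log2 fold change 0.51, adjusted p = 0.0214). Cdkn2c lost the call with a replicate block and without WT replicate 4, knockdown replicate 2 or knockdown replicate 3, with adjusted p-values of up to 0.131. Cdkn1a, which encodes p21, fell (508 ± 25.2 CPM in Ddx54 KD and 611 ± 15.2 CPM in WT; -0.27, adjusted p = 0.000708). Cdkn2a and Cdkn2b, named after their values were seen, had 0 reads in all 7 libraries.

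The DREAM complex joins p107 or p130, E2F4 or E2F5 and the MuvB core. In cycling cells the core exchanges its pocket protein and E2F partners for B-MYB and later FOXM1. Of the 10 DREAM and MuvB partner genes, 4 rose and 0 fell (40% and 0%, against 14.1% and 15.3% of all tested genes). Their median log2 fold change was 0.28. Only 2 rose with the GC and length correction, and likewise without WT replicate 1, knockdown replicate 1 or knockdown replicate 2. Foxm1 was at 82.1 ± 5.89 CPM in Ddx54 KD and 58.1 ± 4.86 CPM in WT (0.50, adjusted p = 0.000108). Mybl2, which encodes B-MYB (0.53, adjusted p = 0.0322), its relative Mybl1 (0.54, adjusted p = 0.00994) and the core subunit Lin54 (0.45, adjusted p = 0.0311) also rose. Of the 17 alternatives Lin54 lost the call under 6, Mybl2 under 5 and Mybl1 under 2, while Foxm1 passed under each.

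Of 11 chromatin partners of pocket proteins, 2 rose and 2 fell, 18.2% in each direction, which is near the 14.1% higher and 15.3% lower among all tested genes. The median log2 fold change was -0.08, and -0.09 to -0.03 under the alternatives. Arid4a, an Rb-binding protein (0.43, adjusted p = 1.13e-05), and the remodeler gene Smarca4 (0.36, adjusted p = 0.000136) rose. The corepressor gene Sin3b (-0.37, adjusted p = 0.000574) and the demethylase gene Kdm5a (-0.21, adjusted p = 0.0456) fell. Kdm5a lost the call under 6 of the 17 alternatives: limma-voom, the replicate block, and leaving out WT replicate 1, WT replicate 4, knockdown replicate 1 or knockdown replicate 3. Among 10 partners of E2F6 in its polycomb-type complex, 2 rose and 0 fell, L3mbtl2 (0.68, adjusted p = 2.73e-06) and Mga (0.23, adjusted p = 0.0222), and the median was 0.07, and 0.02 to 0.12 under the alternatives. The share that rose, 20.0%, is near the 14.1% of all tested genes. Mga lost the call with the GC and length correction and without WT replicate 2, WT replicate 3, knockdown replicate 2 or knockdown replicate 3, with adjusted p-values of up to 0.718. With DESeq2, with the GC and length correction and without WT replicate 2, 1 gene of the list was called lower. Of 8 genes for ubiquitin ligase parts that act on E2F factors, 4 rose and 0 fell. That is 50% and 0%, against 14.1% and 15.3% of all tested genes. Skp2, an F-box protein that binds E2F1, was at 63.6 ± 4.21 CPM in Ddx54 KD and 36.3 ± 4.29 CPM in WT (0.81, adjusted p = 8.22e-07). Ccnf, which encodes cyclin F (0.43, adjusted p = 0.00479), Cdc20 (0.39, adjusted p = 6.16e-05) and Cul1 (0.29, adjusted p = 0.000467) were the others, and the list had a median of 0.25.

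Most of the listed G1/S target genes of E2F rose, as did most of the listed G2/M targets of DREAM and MuvB. Of 40 G1/S targets, 32 rose, 0 fell and 8 did not pass, and the median log2 fold change was 0.50. The share that rose was 80%, against 14.1% of all tested genes. Rrm2, a subunit of ribonucleotide reductase, led with 1.16, and Ccne2, the origin factor Orc1 (1.10, adjusted p = 0.00107) and the checkpoint mediator Clspn (1.04, adjusted p = 1.47e-09) followed. Of 24 G2/M targets of DREAM and MuvB, 16 rose, 0 fell and 8 did not pass, with a median of 0.31. Here the share that rose was 66.7%, against the same 14.1%. Among them were Ttk (0.65), the kinase Plk1 (0.62), Birc5, which encodes survivin (0.56), and the kinesin Kif2c (0.55), with adjusted p-values of 2.14e-06, 1.63e-09, 1.80e-08 and 0.000224. These transcripts are themselves tied to cycle phases. Most of them rose, as did 5 of the 10 members, and whether targets and members move together was not tested. Ccne1, Ccne2, Cdc25a, Ccna2 and Cdc20 each stand in 2 of the lists, and the part of the share of cycling cells in the members' rise was not tested.

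Of 14 apoptosis genes described as E2F1 targets, 12 were tested, 0 rose, 3 fell and 9 did not pass. The share that fell was 25%, against 15.3% of all tested genes, and the share that rose was 0%, against 14.1%. The median was -0.03, and -0.17 to -0.01 under the alternatives. Bbc3, which encodes the death protein PUMA and is also a p53 target, was at 18.6 ± 2.31 CPM in Ddx54 KD and 44.7 ± 4.79 CPM in WT (log2 fold change -1.26, adjusted p = 6.00e-09). Bcl2l11, which encodes BIM, also fell (-0.30, adjusted p = 0.0227). Bcl2l11 lost the call with a replicate block and without WT replicate 3, WT replicate 4, knockdown replicate 2 or knockdown replicate 3, with adjusted p-values of up to 0.153.

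**Figure D4:**
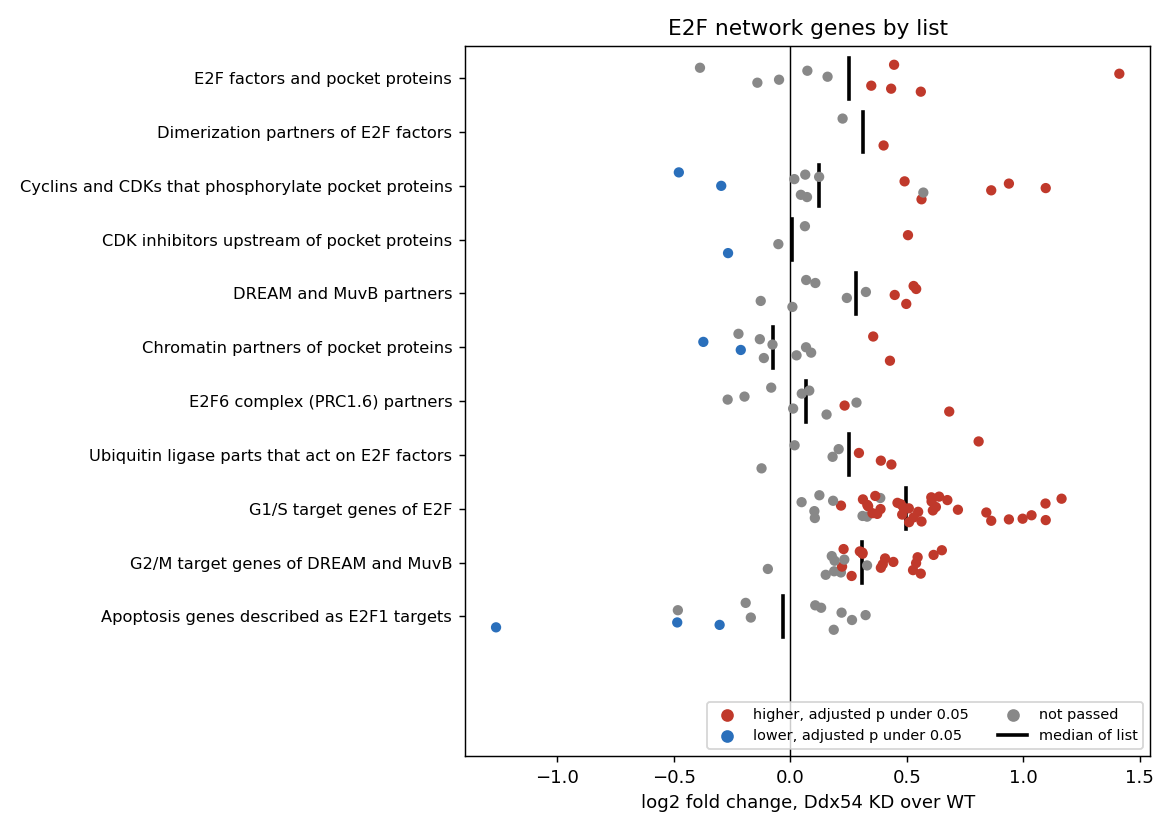
Log2 fold change, Ddx54 KD over WT (horizontal axis), of every tested gene of the members and of each list, with 1 point per gene and the list median as a black line; red is higher and blue lower at an adjusted p under 0.05, and grey did not pass. The G1/S targets all lie on the higher side with a median of 0.50, and the apoptosis genes centre near 0 with Bbc3 at -1.26.

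The genes whose CPM pattern over the 7 libraries was most like that of E2f7 were Mgat4b, Ndc1 and Calr, with Pearson's r of 0.998, 0.994 and 0.992 on the log2 scale, among 8063 genes of at least 10 CPM. The 7 points fall into 2 groups that differ for E2f7, so a gene that separates the groups clearly also gets a high value. Mgat4b, a glycosyltransferase gene, had a log2 fold change of 0.76, Ndc1, a nuclear pore gene, of 0.65, and Calr, the chaperone calreticulin, of 0.53, each below that of E2f7.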

How the data were processed

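The authors deposited 1 table of raw read counts, with a row per gene symbol, a column for each of the 7 libraries and 0 further sample columns. Per the submitters' processing notes, which give no roles or versions, Trimmomatic, STAR and HTSeq were used with the build mm10. For the annotation, the strand setting and multi-mapping reads, the choice is not given in the sources used here. The analysis used edgeR 4.0.16 under R 4.3.3: filterByExpr kept 11594 of 24419 genes, TMM factors scaled the libraries, and a robust quasi-likelihood test compared 3 Ddx54 KD with 4 WT libraries without covariates. P-values were adjusted by Benjamini-Hochberg over all tested genes. The SE is approximate, the size of the log2 fold change over the root of the F statistic, and intervals are the normal 95% ones from that SE. CPM are scaled by TMM factors. Positions and exon lengths come from GENCODE M21 (GRCm38), matched by symbol for 96.3% of tested genes.

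The members and lists were chosen with earlier results of these data known. Named genes are all members, Ddx54, up to 4 called genes of each list by size of change (the 2 of smallest p if under 2 passed, and both genes of a list of 2), and the 3 genes most like the most changed member, predicted models left out. Any other gene was named after its values were seen. A gene that this rule takes is not reported here. Alternatives were RLE and upper-quartile factors, no filter, at least 50 counts in 3 libraries, DESeq2 1.42.0, limma-voom (limma 3.58.1), a replicate block, thinning, removal of Rn45s, a GC and length correction (loess span 0.5) and leaving out each library. The replicate block used replicates 1 to 3 of each group, without WT replicate 4. Libraries of a group differed by more than counting noise (8.48 to 16.6 for chi-square over its degrees of freedom).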

Additional observations from a re-analysis of the deposited data

Results flagged for a closer look

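E2f1 in WT replicate 4 was at 39.5 CPM, against 44.2 to 44.7 CPM in the other WT libraries, and stood apart by the gap between samples. Of 45 quantities searched in the WT group of 4, 1 stood apart in this way, where chance gives about 2.25. The log2 fold change of E2f1 was 0.52 without that library (adjusted p = 0.000831) and 0.56 with it.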

How the results depend on the processing

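Over 17 alternatives the log2 fold change of E2f7 stayed between 1.31 and 1.48, that of E2f1 between 0.50 and 0.66 and that of Ddx54 between -0.93 and -0.81, each past the threshold. With the replicate block, which left out WT replicate 4, the number of members called higher was 3. E2f3 (0.31, adjusted p = 0.0614) and Rbl1 (0.42, adjusted p = 0.0574) lost the call there. With 1 library left out the number was 2 to 5. For the 3 shared replicate numbers, deviations from the group means correlated at -0.039, -0.018 and -0.017. Such values cannot show whether libraries of the same number were made together. The number called lower was 1 with the GC and length correction and 0 to 1 with 1 library left out, from Rb1. E2f5, which passed under none of them, ranged from -0.18 to 0.076 with 1 library left out and changed sign without WT replicate 3 (0.076) and without Ddx54_KD replicate 2 (0.025). The block left 1374 genes higher and 1465 lower, and all alternatives gave 1222 to 1716 higher and 1409 to 1860 lower. Using the longest annotated transcript as gene length, a choice made after seeing the data, put E2f6 at 16.8 CPM per kilobase in Ddx54 KD and 15.1 in WT, against 8.98 in Ddx54 KD and 8.02 in WT with all exons, which lifts it above E2f3. E2f8 then led at 31.7 in Ddx54 KD and 30.1 in WT, and E2f7 was at 7.53 in Ddx54 KD and 2.82 in WT. The activators then made up 33.0% of the E2F sum in Ddx54 KD and 27.4% in WT, and the pocket-dependent repressors 25.2% in Ddx54 KD and 31.4% in WT. The cause of these shifts other than by construction was not tested. E2f5, E2f7 in WT and Rb1 rest on the fewest reads, and E2f5 and Rb1 have the widest intervals of the members.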
